A study of Mus musculus with 8 samples.

Results

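CC chemokines of monocytes and lymphocytes were described in pancreatic tissue of Bach2KO and Bach2WT mice. The group was set as a list of 10 genes: Ccl2, Ccl3, Ccl5, Ccl6, Ccl7, Ccl8, Ccl9, Ccl11, Ccl19 and Ccl21a. Of these 10 genes, 9 had a row among the 21434 genes of the count table, and Ccl3 is not analysed here. Of the 9 genes, 6 passed the filter on low counts (12820 of 21434 genes did), and Ccl2, Ccl7 and Ccl19 did not.

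Chemokines are small secreted proteins that guide leukocytes by way of G protein-coupled receptors. CC chemokines carry a pair of adjacent cysteines near the N-terminus and act on receptors of the CCR family. Ccl6 and Ccl9 are made largely by myeloid cells and act on CCR1, Ccl2 and Ccl7 call monocytes from the blood by way of CCR2, and Ccl8 is a relative of Ccl2 that acts on CCR8 in the mouse. Ccl5 is a product of activated T cells and NK cells that acts on CCR1 and CCR3 among others, Ccl11 (eotaxin) attracts eosinophils by way of CCR3, and Ccl19 and Ccl21a are the ligands of CCR7 that hold T cells and dendritic cells in lymphoid tissue. Bach2 is a transcriptional repressor that restrains effector programmes in lymphocytes and binds DNA elements with the core of the AP-1 site. The question put to these samples was whether pancreatic gene expression differs in mice that lack Bach2.

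RNA sequencing covered 4 Bach2KO and 4 Bach2WT mice, untreated and 18 weeks old, with 2 females (mice 1 and 2) and 2 males (mice 3 and 4) per genotype. The knockout line is C57BL/6N-Bach2tm1b(EUCOMM)Wtsi/leg, a constitutive deletion, so immune and pancreatic cells alike carry it. Whole pancreatic tissue was homogenized, so fewer cells of a type and less RNA per cell cannot be told apart, and p-values measure the spread between single mice. Bach2 itself had 16, 3, 12 and 14 counts in Bach2KO mice 1 to 4 and 4, 4, 31 and 6 counts in Bach2WT mice 1 to 4. A count over the whole gene includes exons outside the deleted part, so it does not check the genotype labels.

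Library totals lay between 72299745 and 172029360 counts, of which digestive enzyme genes took 85.1% to 88.6%. Acinar cell markers had the highest summed level of the cell type lists in every library, as is usual for pancreas. All 9 chemokines together made up 68 to 1363 counts per library, so the depth on each gene was small. The libraries of both mice numbered 1 stood apart in lymphoid transcripts. The summed level of 8 lymph node markers was 6.92 CPM (counts per 1000000 counts of the library, scaled by TMM factors) in Bach2KO mouse 1 and 4.96 CPM in Bach2WT mouse 1, against 0.338 to 0.793 CPM in the other Bach2KO mice and 0.144 to 1.60 CPM in the other Bach2WT mice. Glycam1, a mucin of lymph node venules, had 725 counts in Bach2KO mouse 1 and 0 to 6 counts in all other libraries. Glycam1 thus made up most of the sum in Bach2KO mouse 1. In Bach2WT mouse 1, which had 2 counts of Glycam1, most of the sum was another marker, Cxcl13 (277 counts, against 250 in Bach2KO mouse 1). Values without these libraries are given for Ccl2, Ccl5, Ccl11, Ccl19 and Ccl21a.

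The members lie in 3 groups on the mouse genome (mm39). Ccl2, Ccl7, Ccl11 and Ccl8 lie within 81.2 kb on chromosome 11 (81926397 to 82007625), with Ccl12 as the only other gene of the ligand lists in this interval. Ccl5, Ccl9 and Ccl6 lie within 67.3 kb on the same chromosome (83416604 to 83483913), and Ccl19 and Ccl21a within 19.5 kb on chromosome 4 (42754525 to 42773993). An antisense gene, E230016K23Rik, covers Ccl6 and had 0 counts in 7 libraries and 2 counts in Bach2KO mouse 2. Of the 100-base windows in the GENCODE M21 transcripts (GRCm38), 39.3% for Ccl19 and 50.3% for Ccl21a also occur in other genes, among them Ccl21b for Ccl21a, and 0 do for the other members. Reads of Ccl19 and Ccl21a could therefore be shared with near-identical copies, and their values are uncertain.

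The upstream sequences of the 3 members whose levels did not overlap between the genotypes are shown, since they were searched for short motifs, the core of AP-1 and Bach2 elements among them. They are the 250 bases before the RefSeq gene start (GRCm38.p6), given 5′ to 3′ on the strand of the gene, with capitals for matches to the motifs below. Ccl6 is at chr11:83593088-83593337 (minus strand), Ccl9 at chr11:83578637-83578886 (minus strand) and Ccl8 at chr11:82114935-82115184 (plus strand).
Ccl6: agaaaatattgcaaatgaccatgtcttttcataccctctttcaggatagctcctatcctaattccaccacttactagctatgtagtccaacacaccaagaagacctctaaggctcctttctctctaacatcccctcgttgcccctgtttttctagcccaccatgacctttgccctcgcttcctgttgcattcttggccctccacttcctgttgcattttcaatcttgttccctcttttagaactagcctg
Ccl9: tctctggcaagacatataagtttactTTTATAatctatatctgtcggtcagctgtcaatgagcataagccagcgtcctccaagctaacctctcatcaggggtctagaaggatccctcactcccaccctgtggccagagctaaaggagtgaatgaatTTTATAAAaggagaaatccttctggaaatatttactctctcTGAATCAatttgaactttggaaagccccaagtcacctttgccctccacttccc
Ccl8: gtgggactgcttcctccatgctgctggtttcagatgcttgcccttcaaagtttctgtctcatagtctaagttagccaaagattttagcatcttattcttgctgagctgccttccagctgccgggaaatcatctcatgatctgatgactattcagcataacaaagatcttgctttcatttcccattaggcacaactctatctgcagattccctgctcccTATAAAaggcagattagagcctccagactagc

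Promoter sequences were at hand for 6 of the 10 members (Ccl3, Ccl6, Ccl8, Ccl9, Ccl19 and Ccl21a). Windows of 250 bases before and 50 bases after the gene start were searched on both strands, and overlapping matches were counted singly. The core of AP-1 and Bach2 elements, TGACTCA (on the other strand TGAGTCA), a motif added after the data were seen, matched 0 of the 6 windows and 5.2% of 32851 RefSeq mouse promoters. TGANTCA, a looser form that takes any middle base, matched 1 of the 6 windows, that of Ccl9, at 53 bases before the gene start, and 7.81% of all promoters. The match in Ccl9, TGAATCA in the sequence above, has A in the middle and so is not the core itself. TATAAA, a motif added after the data were seen, matched 2 of the 6 windows and 13.6% of all promoters. It lies 32 bases before the start of Ccl8 and at 92, 94 and 224 bases before that of Ccl9, where the pair at 92 and 94 overlap on opposite strands. The NF-kB-like motif GGANTTTCC and the STAT-like motif TTCNNNGAA matched 0 of the 6 windows, against 1.25% and 8.3% of all promoters. These matches are letters in a window and no measurement of binding. The windows of Ccl21a and of its copy Ccl21d were identical at 297 of 299 bases of an ungapped overlap (99.3%).

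Ccl6 and Ccl9, the CCR1 ligands of myeloid cells, were higher in Bach2KO mice than in Bach2WT mice without overlap between the groups. Ccl6 stood at 1.25, 3.20, 2.71 and 2.30 CPM in Bach2KO mice 1 to 4 (202, 265, 205 and 443 counts) and at 0.910, 0.549, 0.836 and 0.259 CPM in Bach2WT mice 1 to 4 (82, 72, 120 and 18 counts). Bach2KO mouse 1 was the lowest of its group and lay closest to the wild type. The means were 2.36 ± 0.83 CPM and 0.638 ± 0.297 CPM (SD, n = 4 each). The log2 fold change was 1.87 (standard error 0.40, 95% interval 1.02 to 2.73). In edgeR's quasi-likelihood test the unadjusted p was 0.000382 and the adjusted p was 0.326.

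Ccl9 showed the same order of groups at a lower level. Its values were 0.488, 1.28, 0.845 and 0.813 CPM in Bach2KO mice 1 to 4 (79, 106, 64 and 157 counts) and 0.189, 0.198, 0.195 and 0.115 CPM in Bach2WT mice 1 to 4 (17, 26, 28 and 8 counts). Its spread among Bach2WT mice was small beside that among Bach2KO mice, where mouse 1 was again the lowest and mouse 2 the highest. The means were 0.857 ± 0.325 CPM against 0.174 ± 0.0396 CPM (SD, n = 4 each), a 4.84-fold difference (log2 fold change 2.27, standard error 0.45, 95% interval 1.31 to 3.24). The unadjusted p in edgeR was 0.000207 and the adjusted p was 0.266. In the count of 9 members with a row, Ccl6, Ccl8 and Ccl9 were the 3 whose 4 Bach2KO values all lay above the 4 Bach2WT values, which was the case for 2.01% of all 21434 genes.

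**Figure D1:**
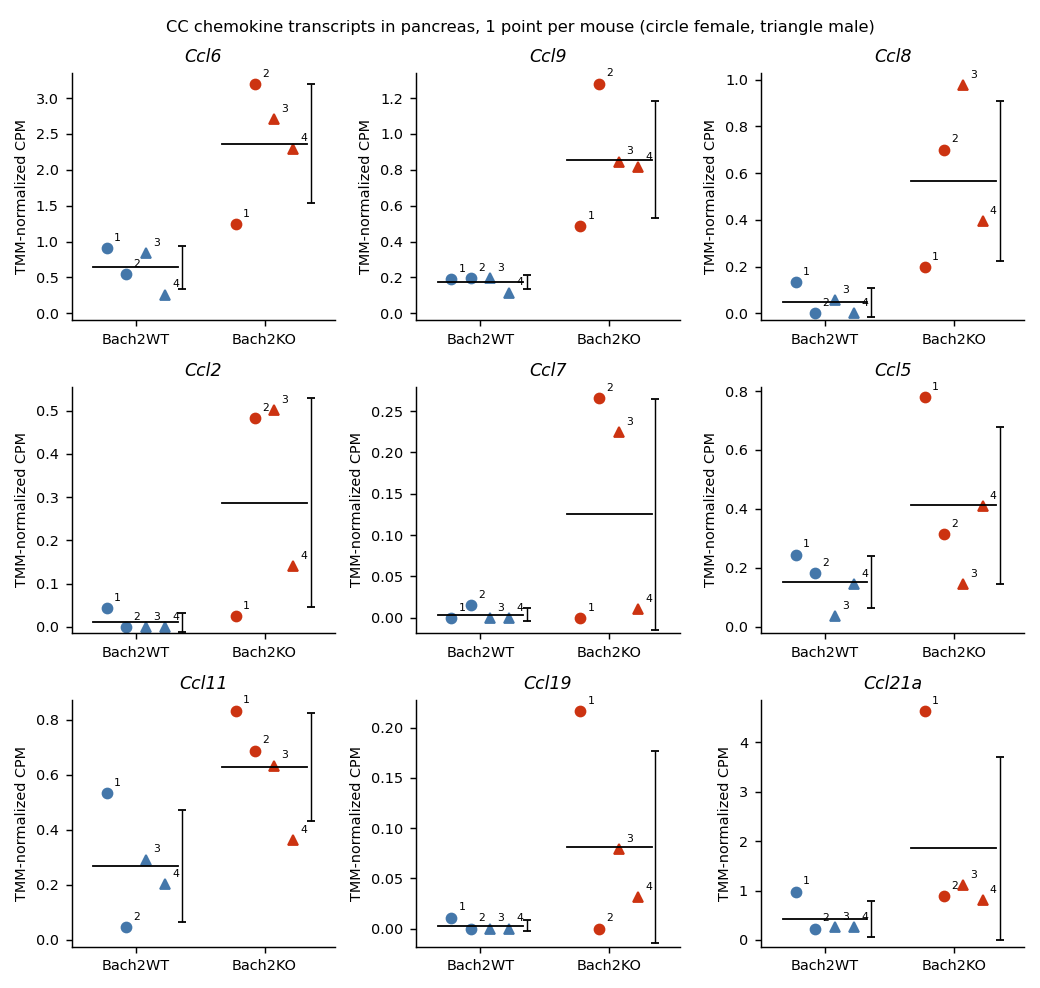
Each panel plots 1 chemokine as TMM-normalized CPM, with 1 point per mouse (circles for females, triangles for males, labelled by mouse number), a horizontal line at the mean and a bar of ± 1 SD for the 4 mice of each genotype. The points of the genotypes are apart for Ccl6, Ccl9 and Ccl8 and overlap for the other 6 genes, and for Ccl21a and Ccl19 Bach2KO mouse 1 stands far above the rest.

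No member passed an adjusted p of 0.05 in edgeR over the 12820 genes tested, a threshold that 0.0078% of the genes passed with higher levels in Bach2KO mice (Rnase2a, 1 gene). At an unadjusted p under 0.05, 4 of the 6 members that passed the filter were higher (Ccl6, Ccl8, Ccl9 and Ccl21a), against 3.9% of the genes tested. The filter asked for about 0.0902 CPM in at least 4 libraries. Ccl8 reached it in only 1 Bach2WT library, so it entered the test by way of its Bach2KO values. With DESeq2, an alternative test with its own size factors and filter, 3 members had an adjusted p under 0.05, namely Ccl9 (0.00145), Ccl6 (0.00363) and Ccl8 (0.0243), where 0.335% of the genes given an adjusted p did so in this direction. With edgeR on all 21434 genes and no filter, 3 members did, namely Ccl6 (adjusted p = 0.00917), Ccl9 (0.0417) and Ccl21a (0.0419), against 0.257% of the genes.

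The DESeq2 calls were followed with each mouse left out, an alternative chosen after seeing the data. Ccl6 and Ccl9 lost the call without Bach2KO mouse 2, the mouse with the highest level of both (DESeq2 adjusted p = 0.0856 and 0.0870). Both kept it in 6 of the 8 fits, with adjusted p between 0.000181 and 0.0265 for Ccl6 and between 0.00076 and 0.0214 for Ccl9. DESeq2 gave none of the members an adjusted p without Bach2KO mouse 3. Ccl8 kept the call only without Bach2KO mouse 1 (0.0130) or without Bach2WT mouse 1 (0.00107), and its adjusted p was 0.0520 to 0.198 in the other 5 fits that gave a value.

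**Figure D2:**
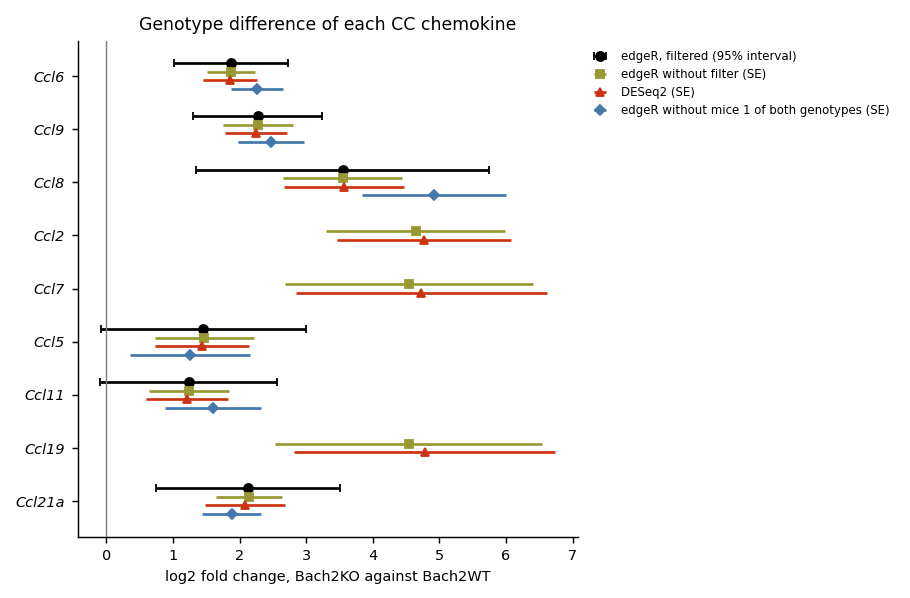
The horizontal axis is the log2 fold change of Bach2KO against Bach2WT mice and each row is a chemokine, with edgeR on filtered genes (black, 95% interval), edgeR without filter (square), DESeq2 (triangle) and edgeR without both mice numbered 1 (diamond, all 3 with ± 1 standard error). Every estimate lies to the right of 0, and the black intervals of Ccl5 and Ccl11 reach below 0. Ccl2, Ccl7 and Ccl19 have no black point because they failed the filter, and no diamond is drawn where a gene failed the filter or all Bach2WT libraries left were at 0.

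Ccl8, Ccl2 and Ccl7, the chemokines of the monocyte chemoattractant group, were low in Bach2WT mice and reached up to 0.977 CPM in Bach2KO mice. Ccl8 stood at 0.198, 0.700, 0.977 and 0.394 CPM in Bach2KO mice 1 to 4 (32, 58, 74 and 76 counts) and at 0.133, 0, 0.0557 and 0 CPM in Bach2WT mice 1 to 4 (12, 0, 8 and 0 counts). The groups did not overlap, though Bach2KO mouse 1 and Bach2WT mouse 1 were close to each other. The means were 0.567 ± 0.343 CPM and 0.0472 ± 0.0631 CPM (SD, n = 4 each). The log2 fold change was 3.55 (standard error 1.02, 95% interval 1.34 to 5.75). In edgeR the unadjusted p was 0.00405 and the adjusted p was 0.513. If counts are independent, a count of 0 allows up to 3 counts, which is 0.0229 CPM in Bach2WT mouse 2 and 0.0432 CPM in Bach2WT mouse 4.

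Ccl2, the main CCR2 ligand on monocytes, had 4, 40, 38 and 27 counts in Bach2KO mice 1 to 4 (0.0247, 0.483, 0.502 and 0.140 CPM) and 4, 0, 0 and 0 counts in Bach2WT mice 1 to 4 (0.0444 CPM in mouse 1). Of the Bach2KO mice, 3 lay above all Bach2WT mice, and Bach2KO mouse 1 lay below Bach2WT mouse 1. The two-sided exact permutation test of CPM gave p = 0.0571, unadjusted, where the smallest p that 4 against 4 mice allow is 0.0286. The DESeq2 adjusted p was 0.0528 with all mice, 0.0141 without Bach2KO mouse 1 and 0.00222 without Bach2WT mouse 1. It was 0.402 without Bach2KO mouse 2, 0.0899 without Bach2KO mouse 4, and 0.167, 0.179 and 0.117 without Bach2WT mice 2, 3 and 4, with no value without Bach2KO mouse 3. Summed over mice, the counts relative to depth in Bach2KO were 23.1 times those in Bach2WT (exact conditional 95% interval 8.75 to 86.1, which covers counting error only). This interval, like those of Ccl7 and Ccl19 below, takes counts as independent and is too narrow if both mates of a pair were counted.

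Ccl7, which shares CCR2 with Ccl2, had 0, 22, 17 and 2 counts in Bach2KO mice 1 to 4 and 2 counts in Bach2WT mouse 2, with 0 in the other Bach2WT mice. Mice 2 and 3 of the Bach2KO group carried nearly all of its counts, at 0.266 and 0.225 CPM. The groups overlapped (exact permutation test, p = 0.257, unadjusted, n = 4 each). The ratio of the sums was 17.3 with a counting interval from 4.51 to 148. Bach2KO mice 2 and 3 were also the highest of their group for Ccl2, Ccl6 and Ccl8, and mouse 1 was the lowest for each of these genes.

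Markers of monocytes and macrophages were measured beside these 5 chemokines. Of 13 markers, 10 had a higher and 3 a lower level in Bach2KO mice. In edgeR, 2 of the higher ones had an unadjusted p under 0.05. These were Lyz2 (lysozyme, log2 fold change 1.15, unadjusted p = 0.00558) and C1qb (a complement subunit, 0.95, unadjusted p = 0.00874). The 3 lower ones were C1qa, another complement subunit (−0.64, unadjusted p = 0.0515), Adgre1 (−0.27, unadjusted p = 0.506) and Cx3cr1 (−0.18, unadjusted p = 0.826). Of the 13 markers, 0 had an adjusted p under 0.05. Their summed level was 24.8 to 39.3 CPM in Bach2KO mice and 17.1 to 32.6 CPM in Bach2WT mice, so the groups overlapped. Bach2KO mouse 1 had the lowest sum of its group. Among the defining markers, Adgre1 and Csf1r were detected in every library, and Itgam was at 0 counts in Bach2KO mouse 3. The part of these cells in the chemokine levels was not tested.

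Ccl5, the chemokine of activated T cells and NK cells, was higher on average in Bach2KO mice, with overlapping groups. It stood at 0.778, 0.314, 0.145 and 0.409 CPM in Bach2KO mice 1 to 4 (126, 26, 11 and 79 counts) and at 0.244, 0.183, 0.0348 and 0.144 CPM in Bach2WT mice 1 to 4 (22, 24, 5 and 10 counts). Unlike Ccl6 and Ccl9, it was highest in Bach2KO mouse 1 and lowest in mouse 3 of either genotype. The means were 0.412 ± 0.268 CPM and 0.152 ± 0.0881 CPM (SD, n = 4 each). The log2 fold change was 1.46 (standard error 0.71, 95% interval −0.08 to 2.99). The unadjusted p in edgeR was 0.0609 and the adjusted p was 0.684. The unadjusted p was 0.0447 with sex as a covariate, 0.0441 with counts divided by 2 and 0.0408 in DESeq2, and 0.0455 with the replicate block. Without Bach2KO mouse 1 the log2 fold change was 0.95 (unadjusted p = 0.268 in edgeR), and without both mice numbered 1 it was 1.26 (unadjusted p = 0.189). With other single mice left out the unadjusted p ranged from 0.0258 (without Bach2KO mouse 3) to 0.123 (without Bach2WT mouse 3). The 10 T cell markers summed to 0.857 to 3.14 CPM in Bach2KO mice, highest in mouse 1, and to 0.223 to 2.40 CPM in Bach2WT mice, also highest in mouse 1. All 6 T cell markers that were tested had a higher mean in Bach2KO mice and 0 had an unadjusted p under 0.05. The part of T cells in the level of Ccl5 was not tested.

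Ccl11 (eotaxin) was detected in all 8 mice. Its values were 0.834, 0.688, 0.634 and 0.363 CPM in Bach2KO mice 1 to 4 (135, 57, 48 and 70 counts) and 0.533, 0.0457, 0.292 and 0.202 CPM in Bach2WT mice 1 to 4 (48, 6, 42 and 14 counts). The groups overlapped through Bach2KO mouse 4 and Bach2WT mouse 1. The means were 0.630 ± 0.197 CPM and 0.268 ± 0.204 CPM (SD, n = 4 each), and the log2 fold change was 1.23 (standard error 0.61, 95% interval −0.09 to 2.56, unadjusted p = 0.0652 and adjusted p = 0.695 in edgeR). With each mouse left out in edgeR, the log2 fold change ranged from 0.87 without Bach2WT mouse 2 (unadjusted p = 0.115) to 1.80 without Bach2WT mouse 1 (unadjusted p = 0.0160). It was 1.07 without Bach2KO mouse 1 (unadjusted p = 0.145). Without both mice numbered 1 it was 1.60 (unadjusted p = 0.0481 in edgeR). The unadjusted p was 0.0418 with the replicate block (log2 fold change 1.49), 0.0448 without a filter and 0.0492 in DESeq2, and no adjusted p of Ccl11 or Ccl5 was under 0.05 in any of these fits.

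Transcripts of eosinophils, the cells that Ccl11 attracts, rested on few genes. The summed level of 5 eosinophil markers was 0.495 to 1.78 CPM in Bach2KO mice and 0 to 0.355 CPM in Bach2WT mice, without overlap. Without Rnase2a, a sum taken after seeing the data, it was 0.145 to 0.885 CPM against 0 to 0.355 CPM, and the groups overlapped. Rnase2a, an eosinophil-associated ribonuclease, was the only gene past an adjusted p of 0.05 in edgeR (0.0439). It had 116, 29, 68 and 134 counts in Bach2KO mice 1 to 4 and 0 counts in all Bach2WT mice. Rnase2a, too, entered the test by way of its Bach2KO values. Ear2, a related ribonuclease and the other marker that was tested, had 28, 10, 67 and 50 counts in Bach2KO mice 1 to 4 and 30, 7, 18 and 0 in Bach2WT mice 1 to 4 (log2 fold change 1.47, unadjusted p = 0.161 in edgeR). Siglecf and Il5ra, defining receptors of eosinophils, had at most 7 counts in a library and 0 in all Bach2WT mice. Ccr3, the receptor of Ccl11, had 2 and 6 counts in Bach2KO mice 1 and 2 and 0 in the other 6 libraries. The part of eosinophils in the chemokine levels was not tested.

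Ccl21a and Ccl19, the CCR7 ligands of lymphoid tissue and lymphatic vessels, were, like the lymph node transcripts, highest in the mice numbered 1. Ccl21a stood at 4.63, 0.882, 1.11 and 0.813 CPM in Bach2KO mice 1 to 4 (750, 73, 84 and 157 counts) and at 0.977, 0.229, 0.258 and 0.259 CPM in Bach2WT mice 1 to 4 (88, 30, 37 and 18 counts). In both genotypes mouse 1 stood far above the others, and the groups overlapped only through Bach2WT mouse 1. The means were 1.86 ± 1.85 CPM and 0.431 ± 0.365 CPM (SD, n = 4 each). The log2 fold change was 2.13 (standard error 0.64, 95% interval 0.74 to 3.51, unadjusted p = 0.00550 and adjusted p = 0.523 in edgeR). Bach2KO mouse 1 owed 55.0% of its summed chemokine level to Ccl21a, against 11.3% to 15.4% in the other Bach2KO mice.

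The size of the Ccl21a difference turned on these libraries. It was 1.12 on the log2 scale without Bach2KO mouse 1 (unadjusted p = 0.0565 in edgeR), 2.91 without Bach2WT mouse 1 (unadjusted p = 0.000700) and 1.88 without both, an alternative chosen after seeing the data. With both left out, so also the Bach2WT mouse that overlapped, the lowest Bach2KO value of 0.813 CPM lay above the highest Bach2WT value of 0.259 CPM. DESeq2 gave Ccl21a no p with all mice (it set aside a count as outlying), an adjusted p of 0.725 without Bach2KO mouse 1 and one of 0.000702 without Bach2WT mouse 1. With other mice left out it was 0.0423 (without Bach2KO mouse 4) to 0.277, with no value without Bach2KO mouse 3. The same removal of both mice added Ccl21a, Ccl2 and Ccl11 to the members without overlap, which were then 6 of 9, where 5.51% of all 21434 genes did not overlap in this direction among 3 against 3 mice. Bach2WT mouse 1 was the only Bach2WT mouse above any Bach2KO mouse for each of these 3 genes, so the outcome followed from its removal.

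Ccl19 had 35, 0, 6 and 6 counts in Bach2KO mice 1 to 4 and 1, 0, 0 and 0 counts in Bach2WT mice 1 to 4. Most of its counts came from Bach2KO mouse 1, at 0.216 CPM, and the groups overlapped (exact permutation test, p = 0.143, unadjusted, n = 4 each). The difference of the mean levels was 0.0789 CPM with all mice and 0.0340 CPM without Bach2KO mouse 1. The ratio of the sums, 39.8, had a counting interval from 6.80 to 1604. Of the 8 lymph node markers, 3 had a higher mean in Bach2KO mice, and 0 of the 3 tested had an unadjusted p under 0.05. B cell markers summed to 87.9 CPM in Bach2KO mouse 1 and 32.1 CPM in Bach2WT mouse 1, against 1.08 to 10.1 CPM and 1.34 to 8.67 CPM in the other mice of these genotypes. Nearly all of this in Bach2KO mouse 1 was Ighm, the heavy chain of IgM (85.8 CPM, 13893 counts). In Bach2WT mouse 1 most of it was Ighm (26.3 CPM, 2372 counts). Without Ighm, a sum taken after seeing the data, the B cell markers stood at 2.03 CPM in Bach2KO mouse 1 and 5.76 CPM in Bach2WT mouse 1, and 4 of the 5 tested markers were lower in Bach2KO mice and 1 was higher. Markers of lymphatic endothelium, which makes Ccl21a, had a higher level in Bach2KO mice for 5 of 5 genes, with 0 at an unadjusted p under 0.05 and a summed level of 2.34 to 4.07 CPM against 1.56 to 2.45 CPM. The part of lymph node tissue or lymphatic vessels in the Ccl19 and Ccl21a levels was not tested.

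**Figure D3:**
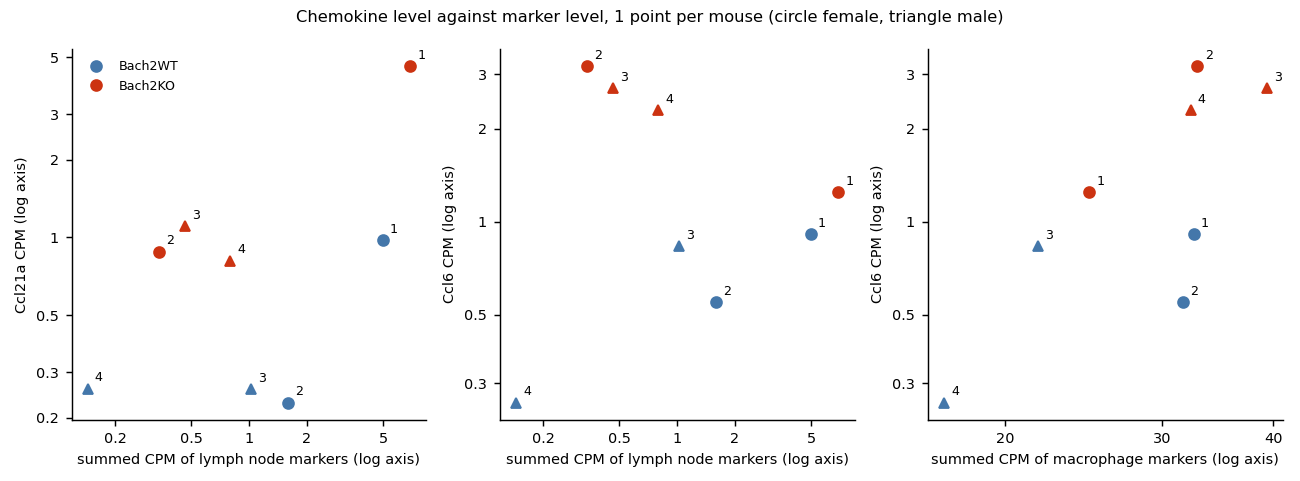
Log axes show the level of Ccl21a (left) and of Ccl6 (middle) against the summed level of lymph node markers, and of Ccl6 against that of monocyte and macrophage markers (right), all in TMM-normalized CPM with 1 point per mouse. Both mice numbered 1 lie at the right of the lymph node axis, where Bach2KO mouse 1 has the highest Ccl21a (4.63 CPM) and the lowest Ccl6 of its genotype (1.25 CPM). Most of the lymph node sum is Glycam1 in Bach2KO mouse 1 and Cxcl13 in Bach2WT mouse 1.

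Over the group, all 9 members with a row had a higher mean CPM in Bach2KO mice. The median log2 fold change was 2.00 for the 6 members that passed the filter, against 0.05 for all 12820 genes tested, and 2.28 for the 9 members with a row, against 0.12 for all 21434 genes, in edgeR without a filter. The members were chosen with results of these libraries known, so these medians are a description and not a test. The summed level of the 9 members was 8.42, 7.81, 7.23 and 5.27 CPM in Bach2KO mice 1 to 4 and 3.04, 1.22, 1.67 and 0.979 CPM in Bach2WT mice 1 to 4. The sums did not overlap between the genotypes. Without Ccl21a, a sum taken after seeing the data, they were 3.79, 6.93, 6.12 and 4.46 CPM in Bach2KO mice 1 to 4, lowest in mouse 1, and 0.720 to 2.065 CPM in Bach2WT mice.

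Levels of different chemokines were compared per length, as the FPKM values the authors deposited (counts divided by gene length and by depth). In Bach2KO mice the order by median FPKM was Ccl6 (1.37, range 0.660 to 1.73), Ccl21a (1.12, 0.914 to 5.05), Ccl8 (1.04, 0.367 to 1.88), Ccl11 (0.596, 0.328 to 0.731), Ccl5 (0.367, 0.149 to 0.769), Ccl9 (0.267, 0.152 to 0.407), Ccl2 (0.266, 0.0206 to 0.434), Ccl7 (0.144, 0 to 0.321) and Ccl19 (0.0625, 0 to 0.237). All neighbours in this order overlapped in range, so their order is not larger than the spread between mice. In Bach2WT mice Ccl6 was again highest (0.381, range 0.143 to 0.496), followed by Ccl21a (0.294), Ccl11 (0.226), Ccl5 (0.168), Ccl9 (0.0620) and Ccl8 (0.0540), and Ccl2, Ccl7 and Ccl19 had a median of 0. The median of Ccl8 thus lay above those of Ccl11, Ccl5 and Ccl9 in Bach2KO mice and below them in Bach2WT mice.

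**Figure D4:**
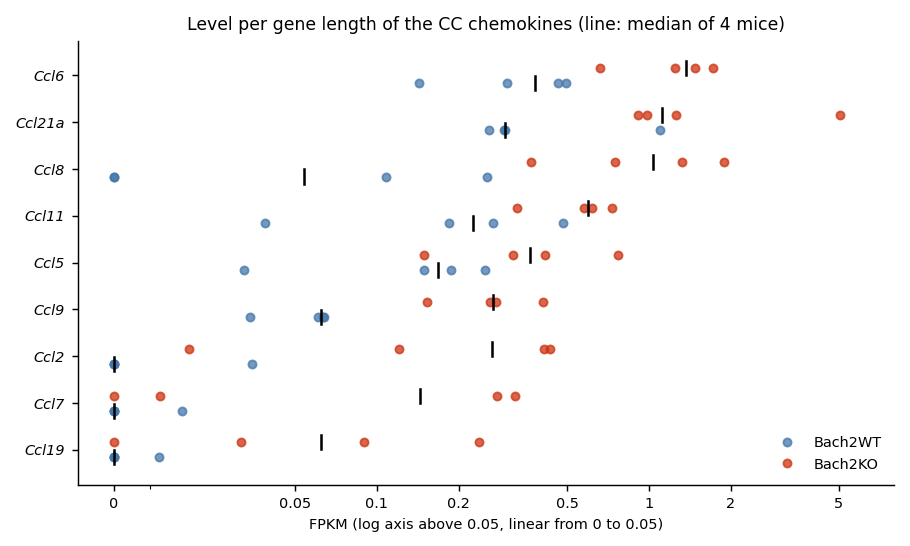
The horizontal axis is FPKM (linear from 0 to 0.05 and logarithmic above), with 1 point per mouse, a row per chemokine and a black line at the median of the 4 mice of a genotype. Rows are ordered by the Bach2KO median, from Ccl6 (1.37) to Ccl19 (0.0625), and the ranges of neighbouring rows overlap.

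Pairs of members were compared by how they varied among mice of the same genotype. After removal of the genotype means, the Pearson correlation of log2 CPM over the 8 libraries was 0.86 for Ccl6 with Ccl9, 0.85 for Ccl6 with Ccl8, 0.78 for Ccl2 with Ccl7 and 0.77 for Ccl2 with Ccl8. Ccl19 and Ccl21a, the CCR7 ligands, had 0.76, and Ccl5 with Ccl21a had 0.59. Ccl11 had 0.64 with Ccl8 and 0.61 with Ccl21a, so the members did not part into separate sets. Ccl5, Ccl19 and Ccl21a had negative values with Ccl2, Ccl6, Ccl7, Ccl8 and Ccl9, down to −0.76 for Ccl9 with Ccl19. The exception was Ccl8 with Ccl21a, at 0.13. The 8 points share their libraries and depth, and several genes have few counts. Ccl6 with Ccl9, Ccl2 with Ccl7 and Ccl8, and Ccl19 with Ccl21a also share a chromosomal region, so these values are a description.

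**Figure D5:**
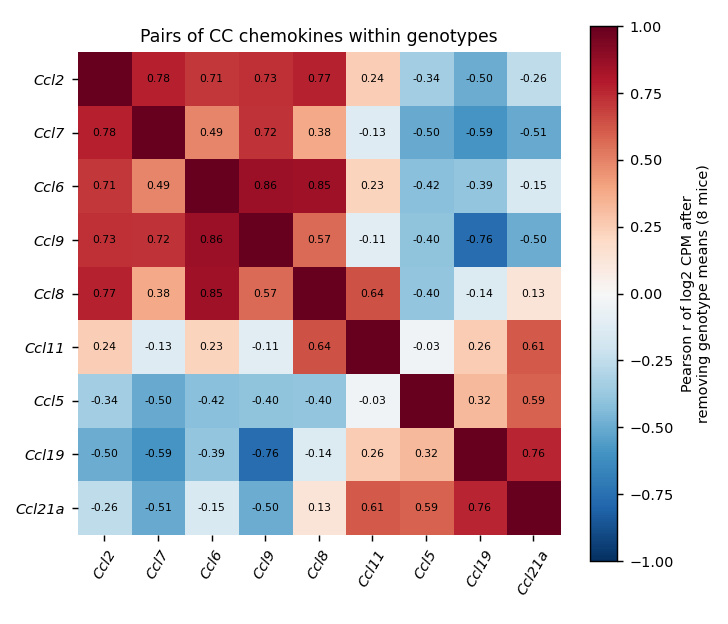
Each cell gives Pearson's r of log2 CPM for a pair of chemokines over 8 mice after the genotype means were removed, in red for positive and blue for negative values. Ccl2, Ccl7, Ccl6, Ccl9 and Ccl8 form a block of positive values (0.38 to 0.86), and Ccl19 and Ccl21a (0.76) stand against most of that block.

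For each member that passed the filter, the genes with the most similar log2 CPM over the 8 libraries were named among 12819 others, a measure that includes the genotype difference. Lgals3 (galectin-3, a lectin abundant in macrophages) was among the top pair for both Ccl6 (r = 0.96) and Ccl9 (r = 0.96), beside Chmp7 for Ccl6 (0.97) and Epha8 for Ccl9 (0.97). Ccl8 was most similar to Gng2 (0.98), a G protein gamma subunit, and Ctsk (0.98), the protease cathepsin K. The nearest genes were Mcc (0.99) and Tmem267 (0.96) for Ccl5, Lin52 (0.99) and Epb41l3 (0.98) for Ccl11, and C2cd4b (0.98) and Ctdsp2 (0.97) for Ccl21a. The points share libraries and depth, and no test was made of these values.

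The genotype difference had the same direction in both sexes for the 6 members that passed the filter. As a difference of mean log2 CPM with 2 mice per sex and genotype, it was 1.48 in females and 2.37 in males for Ccl6, 1.94 and 2.34 for Ccl9, 2.96 and 4.19 for Ccl8, 1.17 and 1.53 for Ccl5, 2.06 and 0.94 for Ccl11, and 2.05 and 1.81 for Ccl21a. The interaction of sex and genotype in edgeR had unadjusted p-values between 0.456 (Ccl8) and 0.828 (Ccl9), and the adjusted p was over 0.05 for all 6 members in edgeR. DESeq2 gave an adjusted p for Ccl6 and Ccl21a (0.9982 and 0.9999) and none for Ccl5, Ccl8, Ccl9 and Ccl11. Over all genes, the interaction had an adjusted p under 0.05 for 0 genes in edgeR and 14 genes in DESeq2. With 2 mice per cell, differences between the sexes of the size seen here could not be told from the spread.

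The receptors of these ligands were near the limit of detection. Of 11 CC receptor genes, 8 had a row and only Ccr2, the receptor of Ccl2 and Ccl7, passed the filter. It had 7, 35, 0 and 18 counts in Bach2KO mice 1 to 4 and 34, 2, 6 and 16 counts in Bach2WT mice 1 to 4, and the genotypes overlapped (log2 fold change −0.24, standard error 1.20, unadjusted p = 0.842). Ccr1, the receptor of Ccl6 and Ccl9, had 6, 16, 2 and 8 counts against 0, 2, 10 and 0 (exact permutation test of CPM, p = 0.314, unadjusted, n = 4 each). Ccr7, the receptor of Ccl19 and Ccl21a, had 50, 0, 16 and 2 counts against 0, 8, 0 and 0 (exact permutation test, p = 0.257, n = 4 each), and its highest value was in Bach2KO mouse 1. Ccr8 is not analysed here.

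Of 15 other CC ligands, 8 had a row, and all 8 had a higher mean CPM in Bach2KO mice. Of the 4 that passed the filter, Ccl22, a ligand of CCR4 made by dendritic cells and macrophages, had 30, 20, 12 and 28 counts in Bach2KO mice 1 to 4 and 0, 6, 6 and 0 in Bach2WT mice 1 to 4, without overlap in CPM (log2 fold change 2.87, standard error 1.05, unadjusted p = 0.0166, adjusted p = 0.602 in edgeR). Like Ccl8, it entered the test by way of its Bach2KO values, since it reached the level of the filter in 0 Bach2WT libraries. Ccl25 also did not overlap (log2 fold change 0.73, unadjusted p = 0.132). Ccl24, another eotaxin, and Ccl27a had log2 fold changes of 1.78 and 0.21 with unadjusted p-values of 0.0771 and 0.560. Ccl4, a close relative of Ccl3, had 0, 6, 18 and 4 counts in Bach2KO mice and 0 in all Bach2WT mice, and Ccl12, the remaining CCR2 ligand of the chromosome 11 interval, had 0, 2, 10 and 6 counts against 0, 0, 6 and 0. As for Ccl7, Bach2KO mouse 1 had 0 counts of Ccl4 and Ccl12.

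Other genes of the pathway were read from fixed lists. Of all genes tested, 54.7% had a log2 fold change above 0, with a median of 0.05, and 3.9% were higher at an unadjusted p under 0.05. Of 5 atypical receptors, which take up chemokines without signalling through G proteins, 3 were tested, with 2 higher and 1 lower. Ackr3 had a log2 fold change of 1.01 (unadjusted p = 0.0494, adjusted p = 0.668 in edgeR). Ackr1 had 0.73 (unadjusted p = 0.3945) and Ccrl2 had −0.08 (unadjusted p = 0.855). Of 14 tested genes for signalling behind the receptors, 13 were higher and 1 was lower with a median log2 fold change of 0.24, and Gng2 (3.13, unadjusted p = 0.0171) and Rgs2 (a regulator of G protein signalling, 2.06, unadjusted p = 0.0180) had an unadjusted p under 0.05 in edgeR. Gng2, too, reached the level of the filter in 0 Bach2WT libraries. Of 9 tested inducers of chemokine genes, 7 were higher and 2 lower with a median of 0.27, and Relb and Irf1 had log2 fold changes of 1.10 and 1.00 with unadjusted p-values of 0.0200 and 0.0113. Among all these genes 0 had an adjusted p under 0.05 in edgeR or DESeq2. Nfkb1 and Rela, subunits of NF-kB, had log2 fold changes of 0.19 and 0.07, and the cytokine genes Tnf, Il1b and Il6 failed the filter, with 37 counts of Il1b and 12 of Il6 in Bach2KO mouse 3 and 0 to 2 counts of each in the other libraries.

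Neutrophil transcripts were at 0.0725 to 0.647 CPM summed over 5 markers in Bach2KO mice and at 0 to 0.0666 CPM in Bach2WT mice. S100a8 and S100a9 had 2 to 40 and 6 to 29 counts in Bach2KO mice and 0 counts in all Bach2WT mice (DESeq2 adjusted p = 0.0282 and 0.0280). Both failed the filter, so the main edgeR fit gave them no p, and their DESeq2 values rest on low Bach2KO counts alone. Mpo, Elane and Cxcr2, further defining markers, had at most 6 counts in any library. The 6 markers of fibroblasts, which are known to make Ccl2 and Ccl11, summed to 27.3 to 54.6 CPM in Bach2KO mice and 25.2 to 66.0 CPM in Bach2WT mice. Dendritic cell markers summed to 1.137 to 1.725 CPM against 0.822 to 1.144 CPM, so the groups overlapped. Most of this sum was Zbtb46 (mean 0.993 against 0.724 CPM). Of the 6 dendritic cell markers, 4 had a higher mean in Bach2KO mice, and Flt3 and Xcr1 had a lower one. The part of any of these cells in the chemokine levels was not tested.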

How the data were processed

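RNA of pancreatic tissue from 4 Bach2KO and 4 Bach2WT mice was made into poly(A)-selected libraries, which a provider sequenced as paired-end reads of 150 bases. The submitters' processing notes name fastp, HISAT2 2.2.1, featureCounts 2.0.6 and the build mm39, and the strand setting is not given in the sources used here. The authors deposited raw counts per gene and library without normalization, together with FPKM values, which the authors made from counts divided by a size factor per library and by gene length. The deposited log2 fold changes and p-values of the authors' own comparison were not used. Of the counts from 1 to 100, 66.5% to 69.8% were even numbers, so both mates of a pair may have been counted, and a fit on counts divided by 2 was run.

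All results other than FPKM levels came from the deposited counts. Genotypes were compared in all 8 libraries with edgeR 4.0.16 (R 4.3.3), using filterByExpr, TMM normalization and the quasi-likelihood test without covariates, with Benjamini-Hochberg adjustment over 12820 genes and a threshold of 0.05. The biological coefficient of variation was 0.438. Log2 CPM had 2 as prior count, and the standard error is the log2 fold change divided by the square root of F. Members under the filter were compared by two-sided exact permutation tests of CPM and by the ratio of summed counts with an exact conditional 95% interval. A count of 0 allows up to 3 counts (0.0155 to 0.0432 CPM per library), and intervals and floors cover counting error only. Both take counts as independent, so if both mates of a pair were counted the intervals are too narrow and the floors too low. Alternatives were DESeq2 1.42.0, RLE factors, no filter, at least 10 counts in every library, a covariate for sex, a replicate block, library sizes without digestive enzymes, counts divided by 2, a gene length correction (loess, span 0.3) and leaving out each mouse.

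Named genes were the 10 members, lists of other CC ligands, receptors, signalling genes, inducers and cell type markers, and for each member tested the 2 genes with the highest correlation. The members and lists were chosen with earlier results of these data known. Upstream sequences were taken from RefSeq (GRCm38.p6). The procedure was tested on simulated data. Values of some listed genes are not reported here.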

Additional observations from a re-analysis of the deposited data

Results flagged for a closer look

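Single mice stood apart from the other 3 mice of their genotype by Dixon's test at its 95% critical value for 5 members, where chance flags about 1 in 20 groups. Ccl21a was high in Bach2KO mouse 1 at 4.63 CPM (0.813 to 1.11 CPM in the other Bach2KO mice) and in Bach2WT mouse 1 at 0.977 CPM (0.229 to 0.259 CPM in the other Bach2WT mice). Ccl9 was low in Bach2WT mouse 4 at 0.115 CPM (0.189 to 0.198 CPM in the others). Ccl2 was at 0.0444 CPM and Ccl19 at 0.0111 CPM in Bach2WT mouse 1, and Ccl7 at 0.0152 CPM in Bach2WT mouse 2, while the other 3 Bach2WT mice were at 0 for each of these genes. These values are 4, 1 and 2 counts, and with the other 3 mice at 0 any count above 0 passes the critical value by construction.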

How the results depend on the processing

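All members that passed the filter kept a higher level in Bach2KO mice under every alternative that gave them a value, and 0 reversed (a minimum of 10 counts in every library left only Ccl6 and Ccl21a). Their log2 fold changes ranged from 1.48 to 2.37 for Ccl6, 1.94 to 2.47 for Ccl9, 2.96 to 4.92 for Ccl8, 0.95 to 1.79 for Ccl5, 0.87 to 2.06 for Ccl11 and 1.12 to 2.91 for Ccl21a. The members' median was 1.60 to 2.19 with each mouse left out. Counts of genes moved more, and beyond the removal of Rnase2a named below the cause was not tested. At an adjusted p under 0.05, 52 genes were higher and 23 lower with DESeq2 (762 higher at an unadjusted p), and 55 higher and 18 lower without a filter in edgeR (996 higher at an unadjusted p). The count of 1 higher gene fell to 0 with at least 10 counts in every library (454 higher at an unadjusted p under 0.05), with sex as a covariate (526) and with counts divided by 2 (497), all in edgeR. That gene, Rnase2a, had 0 counts in all Bach2WT mice, so the minimum of 10 counts removed it before the test. The gene length correction gave 327 higher and 752 lower genes at an unadjusted p, against 500 and 457, and shifted the median of all genes from 0.05 to −0.06 while that of the members was 1.98. With each mouse left out, edgeR called 0 to 0 genes higher at an adjusted p, 386 to 757 higher (757 without Bach2WT mouse 1) and 273 to 633 lower (273 without Bach2WT mouse 2, 289 and 304 without Bach2KO mice 2 and 1) at an unadjusted p. The members without overlap were then 3 to 6 (6 without Bach2WT mouse 1, 4 without any single Bach2KO mouse), where 2.99% to 4.26% of all genes did not overlap. Without both mice numbered 1, chosen after seeing the data, 7 genes were higher and 2 lower at an adjusted p and 6 members did not overlap (5.51% of all genes). With the replicate block, 0 genes were higher at an adjusted p (483 at an unadjusted p under 0.05) and the members' median was 1.96. By the labels, mice with the same number share their sex, and whether they share more was not tested. Deviations from the genotype means correlated at 0.21, −0.03, −0.04 and −0.05 between mice with the same number. Only mice 1 correlated best with each other. Depth limits Ccl2, Ccl7, Ccl8 and Ccl19 most, whose Bach2WT counts summed to 4, 2, 20 and 1.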
